A study of Homo sapiens with 12 samples.

Results

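The autophagy and mitophagy genes are a hand-picked set of 35 genes of the core autophagy machinery, its cargo receptors and the pathways that clear mitochondria, taken by symbol from a genome-wide CRISPR knockout screen that gave values for 19112 genes. All 35 symbols were found, each with 4 sgRNAs, and parkin stands under its older symbol PARK2. They fell into 6 classes by role. These were initiation (5 genes), membrane supply and nucleation (6), the conjugation system (8), the ATG8 family (5), cargo receptors (5) and mitophagy (6). The screen was run in HEK293, a human embryonic kidney cell line, transduced with the Brunello guide library as a pool, selected with puromycin and expanded before drug was added. All 12 samples therefore carried the same library and were collected on day 15, as 3 independent replicates per condition. EtOH cells received the ethanol solvent alone, ACT cells 15 µM actinonin, CAP cells 5 µg/mL chloramphenicol, and ACTCAP cells both drugs at those doses. Actinonin leads to faulty mitochondrial translation and loss of membrane potential, whereas chloramphenicol blocks the mitochondrial ribosome. All 4 conditions shared a medium with glutamine, pyruvate and uridine, which lets cells grow with impaired respiration.

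Autophagy encloses cytoplasm in a double membrane and delivers it to the lysosome. The ULK kinase complex starts the process, a lipid kinase complex and membrane-supplying proteins build the phagophore, and a ubiquitin-like conjugation system attaches proteins of the ATG8 family to its membrane, where cargo receptors dock. In mitophagy the cargo is a mitochondrion. The kinase PINK1 accumulates on mitochondria that have lost membrane potential and activates the ubiquitin ligase parkin, whereas BNIP3, BNIP3L and FUNDC1 are outer membrane proteins that bind ATG8 proteins directly. The comparisons asked whether loss of any of these genes helped or harmed cells under mitochondrial mistranslation (ACT), under blocked mitochondrial translation (CAP) or under both.

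For each gene and condition the table held a beta score, which is a coefficient fitted by maximum likelihood across guides and replicates, relative to a baseline not named in it, and a z score, which is beta divided by its standard error. A negative value means that guides against the gene were depleted relative to that baseline. A difference between 2 conditions was read in 2 ways. A z difference of at least 3 (suppressor) or of -3 or less (synthetic sick) was counted as a call. The study set a difference of 3 for such genes in ACT against ACTCAP, on averaged guide scores. Here that rule was extended to the fitted z and to the comparisons with EtOH, so these calls are not the study's own. The Wald difference was the beta difference over its standard error, centred and scaled over all genes, and was called at a Benjamini-Hochberg adjusted p under 0.05 over all genes. No value per replicate, guide or sample and no read depth was in the table, so the spread between the 3 samples of a condition is not seen directly, and the standard error of the fit is the error given here. The all-gene median z was below 0 in every condition, at -2.03 in EtOH, -1.78 in CAP, -1.73 in ACT and -1.70 in ACTCAP. With the baseline unnamed, a score below 0 is therefore not read by itself as a loss of fitness. The scores rest on guide abundance and not on expression, so whether each gene is expressed in these cells cannot be read from them.

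None of the 35 genes passed the Wald difference in any of the 5 contrasts tested, and none reached a z difference of 3 or -3 between any 2 of the conditions compared. The largest z difference of any member was 2.67, that of MAP1LC3A in ACT against ACTCAP, and the largest Wald difference was its 2.56 in the same comparison. Loss of any of these 35 genes was therefore not called as suppressor or synthetic sick under either drug. This does not extend to other genes of the pathway, some of which passed a rule and are given further on. A difference that was not called is not shown to be absent, and the size that could have been called is given with each comparison.

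In EtOH the 35 knockouts had a median z of -1.57, and 23 lay above and 12 below the all-gene median. The lowest was ATG101 at -4.94 and the highest CALCOCO2 at 1.22. The median over the members was -1.12 in ACT, -1.44 in CAP and -1.72 in ACTCAP. Within a gene the 4 conditions spanned a median of 1.616 z units, beside 1.476 over all genes. The narrowest span was that of ATG16L1 at 0.550 and the widest that of NBR1 at 2.93. Of the 35 knockouts, 4 stayed in the lowest 25% of all genes in every condition. These were ULK1, RB1CC1 and ATG101 of the initiation class and ATG9A of the membrane class. Another 4, namely ATG2A, GABARAPL2, TAX1BP1 and CALCOCO2, stayed in the highest 25% in every condition. How many of all genes stayed in the lowest or highest 25% in every condition was not computed. Neither count is therefore read as a trait of these genes. A z above 0 in all 4 conditions was found for TAX1BP1 alone, and 23 members were below 0 in all 4. Over all genes 7.29% were above 0 in EtOH, 9.40% in CAP, 13.4% in ACT and 9.92% in ACTCAP, so a score below 0 is usual. The share of all genes on the same side of 0 in every condition was not computed.

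**Figure D1:**
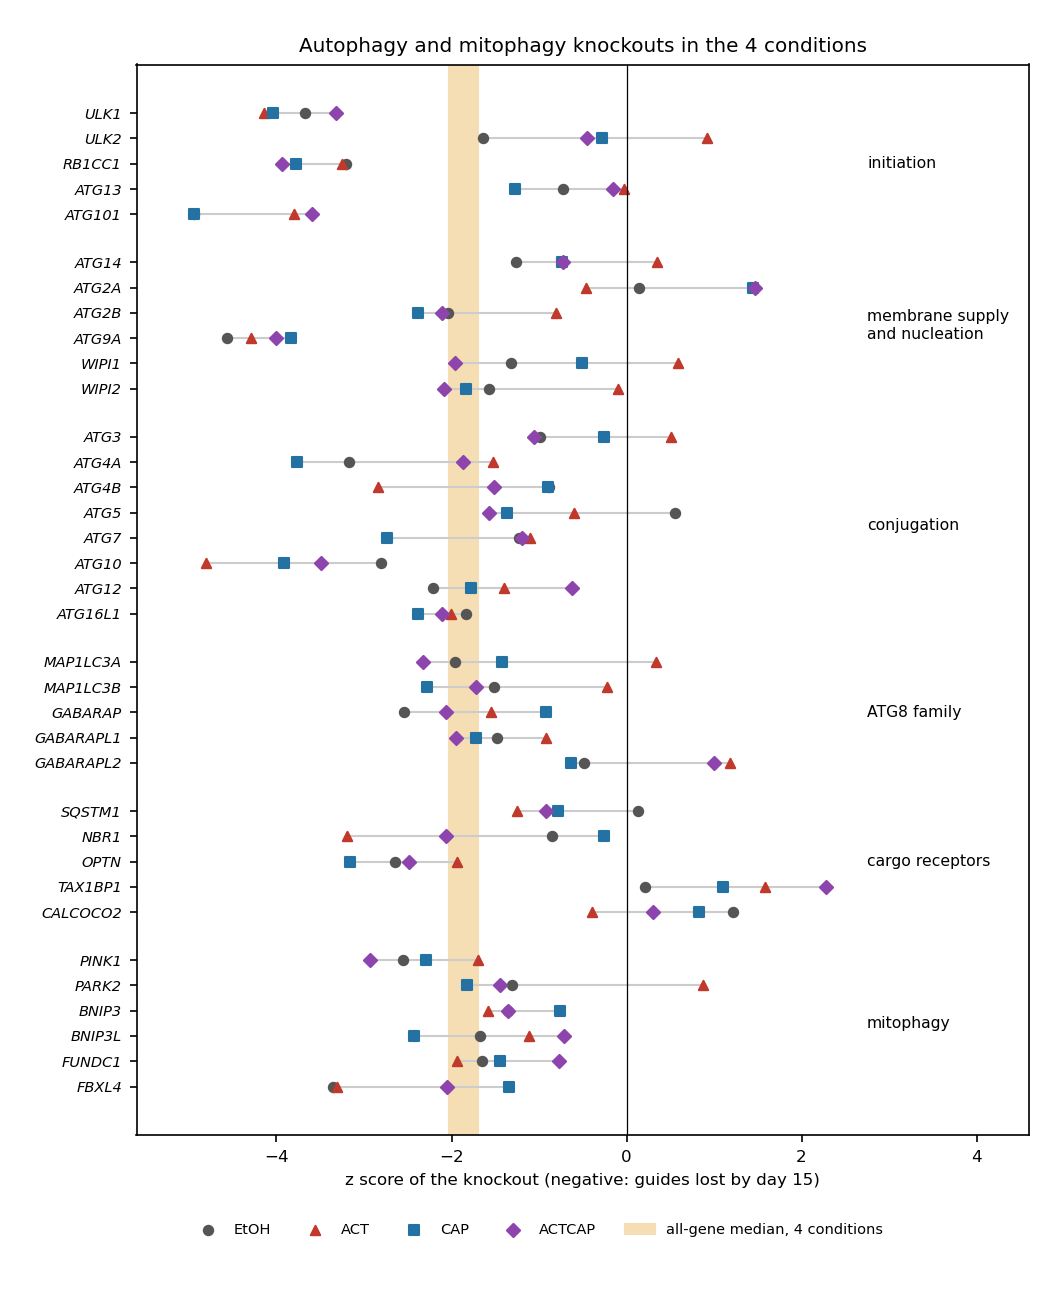
The z score of each of the 35 knockouts (x axis, no unit) is drawn by gene and class, with 1 marker per condition and a grey line over their range; the shaded band spans the all-gene medians of the 4 conditions. ULK1, RB1CC1, ATG101 and ATG9A lie left of the band in every condition, and TAX1BP1 lies right of 0 in every condition.

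Among the initiation genes the class median of z was -3.20 in EtOH, -3.78 in CAP, -3.25 in ACT and -3.32 in ACTCAP. That put 3 of its 5 members in the lowest 25% of all genes in each condition. ATG101, which stabilises ATG13 in the ULK complex, had the lowest EtOH value of the class, with z scores of -4.94 in EtOH, -4.94 in CAP, -3.80 in ACT and -3.59 in ACTCAP. Its EtOH beta was -0.343 ± 0.0694 (standard error of the fit), at the 5.93 percentile of all genes. ULK1, the main kinase of the complex, stood at -3.68 in EtOH, -4.04 in CAP, -4.14 in ACT and -3.32 in ACTCAP. RB1CC1, the large scaffold also called FIP200, stood at -3.20 in EtOH, -3.78 in CAP, -3.25 in ACT and -3.94 in ACTCAP. Each of the 3 lay below the all-gene median in every condition.

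The 2 remaining initiation genes lay above the all-gene median throughout. ATG13, the adaptor that binds both ULK1 and RB1CC1, had the highest EtOH value of the class, with z scores of -0.729 in EtOH, -1.27 in CAP, -0.0290 in ACT and -0.152 in ACTCAP and an EtOH beta of -0.0640 ± 0.0877. ULK2, the second kinase of the family, had z scores of -1.64 in EtOH, -0.281 in CAP, 0.924 in ACT and -0.452 in ACTCAP. It was thus positive in ACT alone. Its z difference of 2.56 in ACT against EtOH was the highest of the 35 genes in that comparison.

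The membrane supply and nucleation class joins ATG14, which steers the lipid kinase complex to the phagophore, the lipid transfer proteins ATG2A and ATG2B, the lipid scramblase ATG9A, and WIPI1 and WIPI2, which bind the lipid that the kinase makes. The class median of z was -1.45 in EtOH, -1.29 in CAP, -0.280 in ACT and -2.02 in ACTCAP. ATG9A was the lowest in EtOH, with z scores of -4.56 in EtOH, -3.84 in CAP, -4.29 in ACT and -4.01 in ACTCAP and an EtOH beta of -0.399 ± 0.0874. ATG2A was the highest, with z scores of 0.145 in EtOH, 1.45 in CAP, -0.465 in ACT and 1.46 in ACTCAP and an EtOH beta of 0.0104 ± 0.0718. The CAP and ACTCAP scores of ATG2A were among the values recomputed from the Wald p-value because a spreadsheet had turned them into dates. ATG14 stood at -1.26 in EtOH, -0.739 in CAP, 0.347 in ACT and -0.722 in ACTCAP. ATG2B stood at -2.04 in EtOH, -2.39 in CAP, -0.804 in ACT and -2.11 in ACTCAP. The lipid-binding WIPI1 had z scores of -1.32 in EtOH, -0.510 in CAP, 0.594 in ACT and -1.96 in ACTCAP, and WIPI2 of -1.57 in EtOH, -1.84 in CAP, -0.0942 in ACT and -2.09 in ACTCAP. These last 4 genes each had their highest score in ACT. In ACT, 4 of the 6 genes were in the highest 25% of all genes, against 1 of 6 in EtOH, 3 in CAP and 2 in ACTCAP.

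The conjugation class holds ATG7, the activating enzyme, ATG3 and ATG10, which carry ATG8 proteins and ATG12 respectively, the ATG12, ATG5 and ATG16L1 complex that completes the transfer, and the proteases ATG4A and ATG4B that process ATG8 proteins. Its median z was -1.53 in EtOH, -2.08 in CAP, -1.47 in ACT and -1.54 in ACTCAP. ATG4A had the lowest EtOH value, with z scores of -3.17 in EtOH, -3.77 in CAP, -1.53 in ACT and -1.87 in ACTCAP and an EtOH beta of -0.198 ± 0.0624. ATG5 had the highest, with z scores of 0.550 in EtOH, -1.37 in CAP, -0.599 in ACT and -1.57 in ACTCAP and an EtOH beta of 0.0566 ± 0.103. ATG5 was thus above 0 in EtOH and below 0 under each drug. Its z difference was the lowest of the 35 genes in both CAP and ACTCAP against EtOH, which share the EtOH samples. ATG7 had z scores of -1.23 in EtOH, -2.73 in CAP, -1.104 in ACT and -1.20 in ACTCAP. ATG10 stayed below the all-gene median in every condition, with -2.81 in EtOH, -3.92 in CAP, -4.80 in ACT and -3.49 in ACTCAP. Of the partners of ATG5 in the transfer complex, ATG12 stood at -2.21 in EtOH, -1.78 in CAP, -1.40 in ACT and -0.620 in ACTCAP, with its lowest value in EtOH, where that of ATG5 was highest. ATG16L1 stood at -1.83 in EtOH, -2.38 in CAP, -2.00 in ACT and -2.10 in ACTCAP. ATG3 had z scores of -0.988 in EtOH, -0.261 in CAP, 0.507 in ACT and -1.06 in ACTCAP, with its one positive value in ACT. ATG4B, in contrast, was lowest in ACT, with z scores of -0.882 in EtOH, -0.897 in CAP, -2.84 in ACT and -1.52 in ACTCAP.

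ATG8 proteins mark the phagophore membrane and hold receptors and cargo to it. For the 5 members of the family in the set, the median z was -1.51 in EtOH, -1.42 in CAP, -0.225 in ACT and -1.95 in ACTCAP. In ACT against EtOH all 5 had a z difference above the all-gene median of 0.317, from 0.557 to 2.30, with a median of 1.29. In ACT against ACTCAP, which uses the same ACT samples, all 5 again lay above the all-gene median of -0.0175, from 0.188 to 2.67. The table holds 2 further genes of the family, which were counted among the other pathway genes and are named here after their values were seen. Their z differences in ACT against EtOH were 0.862 for MAP1LC3C and 2.47 for MAP1LC3B2. In ACT against ACTCAP they were -0.0975, below the all-gene median, for MAP1LC3C and 0.829 for MAP1LC3B2. None of these genes was called in either comparison, and no test was run over the class.

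GABARAP had the lowest EtOH value of the ATG8 family, with z scores of -2.54 in EtOH, -0.925 in CAP, -1.54 in ACT and -2.06 in ACTCAP and an EtOH beta of -0.260 ± 0.102. GABARAPL2 had the highest, with z scores of -0.481 in EtOH, -0.632 in CAP, 1.19 in ACT and 0.997 in ACTCAP and an EtOH beta of -0.0339 ± 0.0704. MAP1LC3A, one of the LC3 proteins, had z scores of -1.96 in EtOH, -1.42 in CAP, 0.337 in ACT and -2.33 in ACTCAP, so that ACT was its only value above 0. MAP1LC3B, the LC3 protein most used as a marker of autophagosomes, had z scores of -1.51 in EtOH, -2.28 in CAP, -0.225 in ACT and -1.72 in ACTCAP. GABARAPL1 stood at -1.48 in EtOH, -1.71 in CAP, -0.921 in ACT and -1.95 in ACTCAP.

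Cargo receptors bind ubiquitin-marked material with one end and ATG8 proteins with the other. As a class they had the highest EtOH level of the 6, with a median z of 0.137 in EtOH, -0.263 in CAP, -1.25 in ACT and -0.917 in ACTCAP. In EtOH 4 of the 5 were in the highest 25% of all genes. CALCOCO2, also called NDP52, had the highest EtOH value, with z scores of 1.22 in EtOH, 0.828 in CAP, -0.393 in ACT and 0.300 in ACTCAP and an EtOH beta of 0.0961 ± 0.0788. OPTN, a receptor that works with parkin-dependent mitophagy, had the lowest, with z scores of -2.64 in EtOH, -3.16 in CAP, -1.94 in ACT and -2.49 in ACTCAP and an EtOH beta of -0.158 ± 0.0599. TAX1BP1 stood at 0.206 in EtOH, 1.099 in CAP, 1.58 in ACT and 2.28 in ACTCAP, and its ACTCAP value was the highest z of any member in any condition. The EtOH score of CALCOCO2 and the ACTCAP score of TAX1BP1 were recomputed from the Wald p-value.

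SQSTM1, the receptor known as p62, had z scores of 0.137 in EtOH, -0.777 in CAP, -1.25 in ACT and -0.917 in ACTCAP. NBR1, a related receptor that assembles with SQSTM1, had z scores of -0.854 in EtOH, -0.263 in CAP, -3.20 in ACT and -2.06 in ACTCAP. NBR1 thus lay nearer 0 in EtOH and CAP than in both conditions that held actinonin. In ACT against EtOH the class median of the z difference was -1.39, the lowest of the 6 classes. With the running median over genes of like z in EtOH removed, the class median was -0.772. Of the 5 receptors 3 had a z difference under 0. OPTN at 0.704 and TAX1BP1 at 1.38 lay on the other side of 0. No receptor was called.

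The mitophagy class had a median z of -1.67 in EtOH, -1.63 in CAP, -1.64 in ACT and -1.40 in ACTCAP, which was the smallest change over the conditions of the 6 class medians. FBXL4, a subunit of a ubiquitin ligase that keeps BNIP3 and BNIP3L levels down, had the lowest EtOH value, with z scores of -3.35 in EtOH, -1.34 in CAP, -3.31 in ACT and -2.05 in ACTCAP and an EtOH beta of -0.253 ± 0.0756. PARK2 had the highest, with z scores of -1.31 in EtOH, -1.82 in CAP, 0.876 in ACT and -1.44 in ACTCAP and an EtOH beta of -0.121 ± 0.0921. PINK1, the kinase upstream of parkin, had z scores of -2.56 in EtOH, -2.29 in CAP, -1.70 in ACT and -2.93 in ACTCAP. Both PARK2 and PINK1 had their highest value in ACT, and neither was called in ACT against EtOH, where the z difference was 2.19 for PARK2 and 0.855 for PINK1.

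The 3 receptors of the mitochondrial outer membrane lay between -2.43 and -0.710 in every condition. BNIP3 had z scores of -1.36 in EtOH, -0.754 in CAP, -1.58 in ACT and -1.35 in ACTCAP. BNIP3L, also called NIX, had z scores of -1.68 in EtOH, -2.43 in CAP, -1.12 in ACT and -0.710 in ACTCAP. FUNDC1 stood at -1.65 in EtOH, -1.44 in CAP, -1.94 in ACT and -0.770 in ACTCAP. In ACT against EtOH their z differences were -0.218, 0.557 and -0.287 in the order named.

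**Figure D2:**
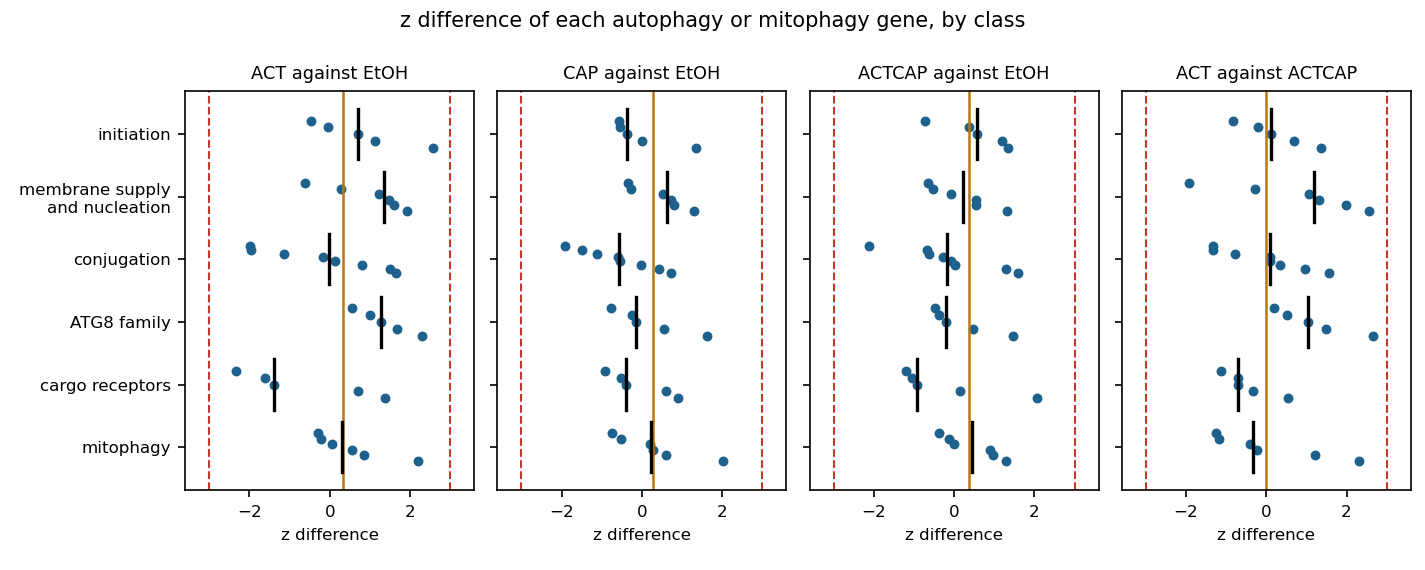
Each point is the z difference (x axis, no unit) of 1 gene in the named comparison, drawn by class; black bars are class medians, the orange line is the all-gene median and dashed red lines mark 3 and -3. No point reaches a dashed line, and the 5 ATG8 genes of the set lie right of the orange line in ACT against EtOH.

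In ACT against EtOH the members' median z difference was 0.700, beside 0.317 over all genes, and 20 of 35 lay above that value. ULK2 was the highest with a z difference of 2.56, and NBR1 the lowest with -2.34. The beta difference of ULK2 was 0.155 with a 95% interval of -0.0129 to 0.324, and its Wald difference 1.79. For NBR1 the beta difference was -0.165 (-0.360 to 0.0293) and the Wald difference -2.12. By the Wald difference 0 of 35 members were called against 1.23% of all genes, at an unadjusted p under 0.05 there was 1 of 35 (NBR1) against 7.74%, and at a z difference of 3 or -3 there were 0 of 35 against 4.79%. A gene needed a Wald difference of at least 3.43 in size. For ULK2 that is a beta difference of 0.281, and for the median member 0.350 upward or -0.303 downward. Of the 35 intervals 33 ended below 0.439, the median beta difference of the 206 genes called higher in ACT, the exceptions being WIPI1 and PARK2. With the exception of ATG5, all began above -0.388, the median of the 30 genes called lower. Both medians are of genes that passed the call in these same data, so they lean to large sizes. Smaller differences are not excluded by these intervals, here or in the comparisons that follow.

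In CAP against EtOH the members' median z difference was -0.152, beside 0.285 over all genes. FBXL4 was the highest at 2.01, with a beta difference of 0.152 (-0.0575 to 0.361) and a Wald difference of 1.71. ATG5 was the lowest at -1.92, with a beta difference of -0.198 (-0.483 to 0.0877) and a Wald difference of -2.18. No member passed the Wald difference, against 0.251% of all genes, and none reached a z difference of 3 or -3, against 1.31%. Only ATG5 had an unadjusted p under 0.05, which is 1 of 35 against 6.84%. A call needed a Wald difference of at least 3.85 in size, or for the median member a beta difference of 0.316 or -0.273. The 95% interval ended below 0.392, the median of the 36 genes called higher, in 33 members, with WIPI1 and GABARAP as the exceptions, and all 35 began above -0.537, the median of the 12 called lower.

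In ACTCAP against EtOH the members' median z difference was 0.00930, beside 0.360 over all genes. TAX1BP1 was the highest at 2.08, with a beta difference of 0.163 (-0.0546 to 0.381) and a Wald difference of 1.71. ATG5 was again the lowest, at -2.12, with a beta difference of -0.219 (-0.504 to 0.0672) and a Wald difference of -2.46. No member was called by the Wald difference, which called 0.277% of all genes, or by the z difference, which called 1.46%. ATG5 was the 1 member of 35 with an unadjusted p under 0.05, against 6.76% of all genes. The Wald difference needed was 3.82 in size, and all 35 intervals ended below 0.438, the median beta difference of the 37 genes called higher. Those of WIPI1 and ATG5 reached -0.418, the median of the 16 called lower, and the other 33 did not.

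ACT against ACTCAP asks what the addition of chloramphenicol to actinonin changed. Here the members' median z difference was 0.123, beside -0.0175 over all genes. MAP1LC3A was the highest at 2.67, with a beta difference of 0.229 (-0.00870 to 0.467) and a Wald difference of 2.56. WIPI1 followed with a z difference of 2.55 and PARK2 with 2.32. ATG2A was the lowest at -1.93, with a beta difference of -0.139 (-0.338 to 0.0606) and a Wald difference of -1.82. The Wald difference called 0 of 35 members and 0.822% of all genes, and the z difference 0 of 35 and 1.92%. An unadjusted p under 0.05 was found for MAP1LC3A, WIPI1 and PARK2, which is 3 of 35 against 7.53%. The 95% interval reached 0.383, the median beta difference of the 102 genes called higher in ACT, for 5 members (WIPI1, ATG5, MAP1LC3A, GABARAPL1 and PARK2), so that a difference of that size was not excluded for them. All 35 intervals began above -0.444, the median of the 55 genes called lower.

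The interaction was the beta in ACTCAP less those in CAP and ACT plus that in EtOH, and it measures how far the effect of both drugs departs from the sum of the 2 single effects. By the Wald difference it called 0 of 35 members against 0.612% of all genes, and 2 of 35 (WIPI1 and MAP1LC3A) had an unadjusted p under 0.05 against 7.25%. WIPI1 had the lowest Wald difference at -2.08, with an interaction of beta of -0.441 (-0.954 to 0.0720). For MAP1LC3A the Wald difference was -1.98 and the interaction of beta -0.276 (-0.612 to 0.0605). ATG10 was the highest at 1.78. On the z scale, without centring or scaling, WIPI1 at -3.36 and MAP1LC3A at -3.21 passed -3, which is 2 of 35 against 7.17% of all genes at 3 or more or -3 or less. In each of the 5 contrasts all 35 intervals included 0. The intervals use the standard errors of the fit as they stand, whereas the Wald difference is also centred and scaled over all genes. That scale ran from 0.713 in ACTCAP against EtOH to 0.888 in ACT against EtOH, so the intervals are wide beside the spread over all genes.

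**Figure D3:**
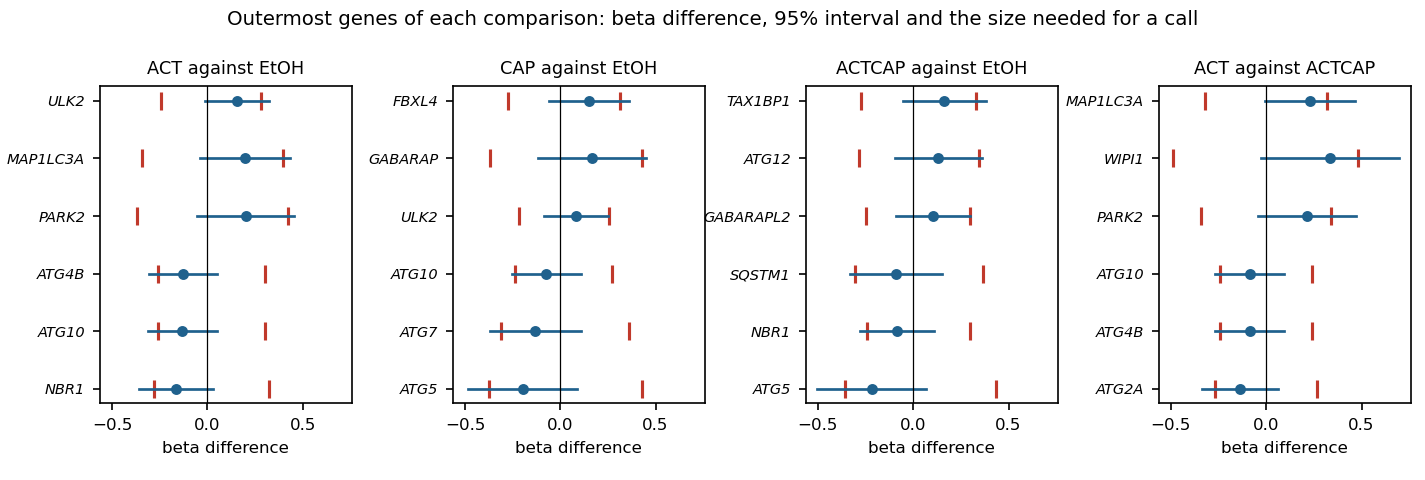
For the 3 highest and 3 lowest members by z difference in each comparison, the point is the beta difference (x axis, no unit), the line its 95% interval and the red ticks the beta difference that a call would have needed in either direction. No point lies beyond a red tick, and every interval includes 0.

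Several members have a close relative in the genome, and a knockout screen with 1 target per cell is meant to leave the relative intact. Guide sequences were not available here, so whether a guide also cuts the relative was not checked. The pairs are set side by side here with no test, since the table gives no covariance between genes. ULK1 and ULK2 lay far apart in every condition, at -3.68 and -1.64 in EtOH and at -4.14 and 0.924 in ACT. ATG2A and ATG2B stood at 0.145 and -2.04 in EtOH and were nearest in ACT, at -0.465 and -0.804. ATG4A was below ATG4B in EtOH, CAP and ACTCAP and above it in ACT, where the scores were -1.53 and -2.84. WIPI1 and WIPI2 were close in EtOH, at -1.32 and -1.57, and in ACTCAP, at -1.96 and -2.09. The same held for MAP1LC3A and MAP1LC3B, at -1.96 and -1.51 in EtOH. BNIP3 and BNIP3L differed most in CAP, at -0.754 and -2.43.

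Another 49 genes of the same pathway, listed by role, were examined for context. Their median z was -2.25 in EtOH and -1.95 in ACT. By the Wald difference 1 of the 49 was called in ACT against EtOH, 1 in ACT against ACTCAP and 1 in the interaction, in each case TOMM7, beside 1.23%, 0.822% and 0.612% of all genes, and 0 in CAP or ACTCAP against EtOH. An unadjusted p under 0.05 was found for 5 of 49 in ACT against EtOH (7.74% of all genes), 3 in CAP (6.84%) and 7 in ACTCAP (6.76%) against EtOH, 5 in ACT against ACTCAP (7.53%) and 2 in the interaction (7.25%). A z difference of 3 or more was reached by 4 of 49 in ACT against EtOH (4.79% of all genes at 3 or -3). It was reached by 1 in ACT against ACTCAP (1.92%) and by 0 in CAP against EtOH (1.31%). In ACTCAP against EtOH 1 reached 3 and 1 reached -3 (1.46%). In the interaction 2 were at -3 or less (7.17%). TOMM7 is a small subunit of the outer membrane import channel and is needed to hold PINK1 on damaged mitochondria. Its z scores were -2.80 in EtOH, -1.76 in CAP, 3.46 in ACT and -1.40 in ACTCAP, of which the ACT score was recomputed from the Wald p-value. In ACT against EtOH it rose by 0.463 in beta (0.258 to 0.668), with a z difference of 6.26 and a Wald difference of 4.74. In ACT against ACTCAP it was higher by 0.360 (0.155 to 0.565), with a Wald difference of 4.65. The calls in ACT against ACTCAP and in the interaction were lost on a standard normal null, at 3.44 and -2.95. PINK1 was not called in any contrast, with a beta difference in ACT against EtOH of 0.0591 and an interval of -0.133 to 0.252. The difference between the 2 genes was not tested.

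Both PIK3C3 and BECN1, of the lipid kinase complex that ATG14 steers, were lower in EtOH than any of the 35 genes. They do not stand for their class of 7 genes, the complex and its regulators. Its median z difference in ACT against EtOH was -0.329, and 4 of the 7 lay below 0. PIK3C3, the catalytic subunit VPS34, had z scores of -7.59 in EtOH, -5.35 in CAP, -3.95 in ACT and -4.56 in ACTCAP. BECN1, the subunit that links the kinase to ATG14, had z scores of -6.33 in EtOH, -4.33 in CAP, -2.96 in ACT and -3.78 in ACTCAP. Both reached a z difference of 3 in ACT against EtOH, at 3.64 and 3.36, and PIK3C3 did in ACTCAP against EtOH, at 3.03. The Wald differences of 2.65, 2.44 and 2.66 were not called. With the running median over genes of like z in EtOH removed, the z differences in ACT were 1.87 for PIK3C3 and 1.72 for BECN1, that of PIK3C3 in ACTCAP was 1.44, and none reached 3. WDR45, a relative of the WIPI proteins, had z scores of -4.05 in EtOH, -1.92 in CAP, -0.514 in ACT and -2.52 in ACTCAP, with a z difference of 3.54 in ACT against EtOH and an uncalled Wald difference of 2.57. Its z difference was 2.55 with the running median removed. In the interaction on the z scale WDR45 stood at -4.14, and its Wald difference there was not called. RAB7A, a small GTPase of late endosomes and lysosomes, was the one gene of the 49 at a z difference of -3 or less between 2 conditions, in ACTCAP against EtOH. Its z scores were -0.551 in EtOH, -1.82 in CAP, -1.22 in ACT and -4.00 in ACTCAP, and its Wald difference of -3.78 fell short of the 3.82 needed.

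The v-ATPase, the proton pump that acidifies the lysosome in which autophagy ends, gives a scale for these values. The 16 of its genes listed for comparison, which are not all of them, had a median z of -5.87 in EtOH and -1.12 in ACT. The study reported the v-ATPase as a suppressor from this same screen. In ACT against EtOH 9 of the 16 passed the Wald difference, against 1.23% of all genes. A z difference of 3 was reached by 12, against 4.79% of all genes at 3 or -3. The median z difference of the 16 was 4.82, beside 0.700 for the autophagy and mitophagy genes and 0.570 for the 49 other pathway genes. With the running median over genes of like z in EtOH removed, these medians were 3.10, 0.360 and 0.0101. The difference between these lists was not tested. In the other comparisons the scale was smaller. The median z difference of the 16 was 2.80 in CAP against EtOH, 2.39 in ACTCAP against EtOH and 1.83 in ACT against ACTCAP. By the Wald difference 1, 2 and 3 of the 16 were called in that order, against 0.251%, 0.277% and 0.822% of all genes. A z difference of 3 was reached by 8, 6 and 4, against 1.31%, 1.46% and 1.92% of all genes at 3 or -3.

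**Figure D4:**
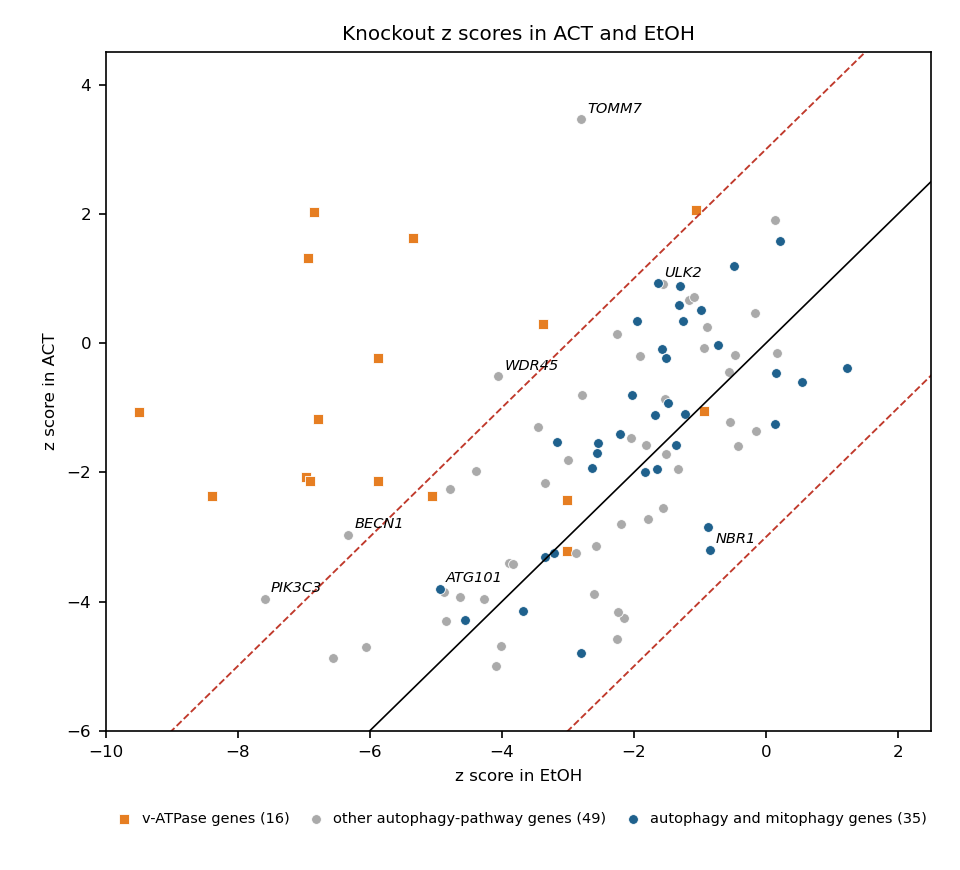
Each point is a gene, with its z score in EtOH on the x axis and in ACT on the y axis; the solid line marks equal scores and the dashed lines a z difference of 3 and -3. The 35 autophagy and mitophagy genes lie between the dashed lines, whereas TOMM7, PIK3C3, BECN1, WDR45 and 12 of 16 v-ATPase genes lie above the upper one.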

How the data were processed

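The 12 samples, 3 in each of 4 conditions, were grouped by the treatment in their labels. The authors trimmed the reads, ran the MAGeCK pipeline (version not given in the sources used here) and deposited 1 table of beta and z scores, permutation and Wald p-values and FDR per gene and condition. The methods describe gene scores averaged over triplicates, whereas the deposited z is beta over the standard error of a fit. The table names no genome build and holds 0 columns of values per sample. A spreadsheet had turned 1146 of 76448 z scores into dates, 4 of the 140 member scores among them. Each was replaced by the normal quantile of the deposited Wald p-value with the sign of beta (median error 2.02e-05 on intact values).

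The members were matched by symbol. Members, classes and lists were chosen with earlier results of these data known, and 2 listed genes of the wider pathway matched by another RefSeq symbol. Standard errors were beta divided by z. The Wald difference was centred on the median and scaled by 1.4826 times the median absolute deviation of all 19112 genes (19111 where ACT enters, since 1 beta was a date), and called at 0.05 after Benjamini-Hochberg adjustment of its 2-sided normal p across the whole table. Since p-values rest on pooled fits, the Wald difference and not p is given for single genes. The 95% interval is the beta difference with 1.96 standard errors either side. Alternatives are listed with their effect in the closing section, the running median spanning 501 genes. Every member could be named, with intervals for the highest and lowest in each comparison. Other pathway genes were named where called or at a z difference of 3 or -3. The interval given for PINK1 and the values for WIPI1, PARK2 and MAP1LC3A beyond that rule were chosen after they were seen. The scripts were tested on simulated data. Values were computed in Python 3.11.15 with scipy 1.17.1, pandas 2.3.3 and numpy 2.4.6, and plotted with matplotlib 3.10.9.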

Additional observations from a re-analysis of the deposited data

Results flagged for a closer look

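TOMM7, which is not among the 35 genes, differed between the drug settings. Its interaction of ACT and CAP had a Wald difference of -3.77 and was called. The call was lost on a standard normal null (-2.95) and with centring but no scaling (-2.83). It was called higher in ACT against EtOH, whereas in ACTCAP against EtOH its Wald difference of 1.03 was not called. The beta score was -0.207 ± 0.0739 in EtOH, -0.130 ± 0.0739 in CAP, 0.256 ± 0.0739 in ACT and -0.104 ± 0.0740 in ACTCAP (standard error of the fit). No member of the autophagy and mitophagy set was called in the interaction.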

How the results depend on the processing

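The count of members called stayed at 0 in each comparison with EtOH and in ACT against ACTCAP under all alternatives run: a z difference of 3, a standard normal null, centring without scaling, an adjusted p of 0.01, a running median removed, standardised z, genes with exactly 4 sgRNAs and genes without a damaged z. In the interaction the count was 0 except at a z difference of 3 or -3, where it was 2, namely WIPI1 at -3.36 and MAP1LC3A at -3.21, beside 7.17% of all genes. The members' z difference, 0.700 as a median in ACT against EtOH, was 0.360 with the running median removed and 0.399 with z centred in each condition. In ACT against ACTCAP, 0.123 became 0.313 with the running median removed. The sign was not stable in CAP against EtOH, where -0.152 became -0.404 with z centred and 0.0164 as a mean, or in ACTCAP against EtOH, where 0.0093 became -0.321 with z centred, -0.231 with the running median removed and 0.162 as a mean. TOMM7 kept its direction but lost 2 calls when the Wald difference was not scaled, at 3.45 (centred) or 3.44 in ACT against ACTCAP and at -2.83 or -2.95 in the interaction. No value was obtained for TOMM7 with damaged genes left out, since its ACT score is one of them.

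No paired analysis was possible because the table holds 1 pooled value per gene and condition and none per replicate. Leaving out each replicate in turn was not run for the same reason. What limits the values is the standard error of the fit, which for a member's beta difference ran from 0.0734 to 0.185 in ACT against EtOH. A member's standard error under a drug was 0.998 to 1.007 times that in EtOH. It thus hardly differed between conditions, and whether it covers the spread between replicates cannot be seen.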
